A study of Mus musculus with 6 samples.

Results

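Meis, Pbx and Pknox genes encode homeodomain proteins of the TALE class, which is named for an extra loop of amino acids in the homeodomain. Pbx proteins bind DNA next to Hox proteins and sharpen the choice of site, while Meis and Pknox proteins bind Pbx, hold it in the nucleus and add a DNA contact of their own. In the vertebrate hindbrain these complexes act on the enhancers of the anterior Hox genes, and Meis and Pbx factors also work outside the Hox domain, in the eye, the midbrain and the cranial neural crest. The values described here are those of 8 genes, Meis1, Meis2, Meis3, Pbx2, Pbx3, Pbx4, Pknox1 and Pknox2, in the heads of mouse embryos at E8.5. They were chosen by name, through array rows to which the annotation of the platform gives a single gene symbol. Each gene had 1 such row, so that 8 of 19938 genes with such a row are described, and no further row of the table lists a symbol of these 8 genes.

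The samples were heads of C57BL/6 embryos, and their RNA was read on mouse Gene ST arrays from Affymetrix. Each of the 6 arrays carried RNA from 4 pooled heads, with 3 pools of Jarid1b heterozygotes and 3 of Jarid1b knockouts. Jarid1b encodes a demethylase that removes methyl groups from lysine 4 of histone H3, and the comparison asks which transcripts differ when it is lost before defects are visible. The deletion was made by recombination with a broadly active Cre, and was then passed through the germ line, so that it affects all cells of the knockouts. The controls also lacked a single allele, no wild-type pool was analysed, and the sex of the embryos is not given in the labels. In pooled heads, fewer cells of a type and less RNA per cell cannot be told apart.

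Jarid1b, which is listed under its current symbol Kdm5b, had a log2 intensity between 9.12 and 9.17 in heterozygote pools and between 7.47 and 7.71 in knockout pools, in accord with the labels. Of the 12 neural ectoderm markers, 11 lay above the median of all tested probe sets, but markers of heart and yolk sac visceral endoderm did so as well, at 10 of 10 genes each. The pools differed in composition. The summed intensity of 9 primitive blood markers reached 1977 in knockout replicate 2, while the remaining pools lay at 399 to 656. That of 10 visceral endoderm markers was 5857 in knockout replicate 3 and between 10067 and 11233 elsewhere. Xist was dim in replicate 2 of both genotypes, at log2 intensities of 4.22 and 3.74, and reached at least 8.82 in the others. The 3 measured Y-linked genes summed to 234 and 218 in heterozygote replicates 1 and 3 and to between 559 and 764 in the remaining 4 pools.

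None of the 8 cofactors had an adjusted p under 0.05 in limma, where 1 of 21789 probe sets (0.00459%), that of Jarid1b, did. In all knockout pools Meis3 and Pbx2 lay below their lowest heterozygote value, by 1.09-fold and 1.08-fold in the means, whereas the groups of the other 6 genes overlapped. Such a separation, with the knockouts lower, was found for 9.03% of all probe sets and for 16.8% of the brightest 7263, to which both genes belong. At an unadjusted p under 0.05, 1 cofactor (Meis3) was lower and 0 were higher, beside 4.66% of all probe sets lower and 5.97% higher. The 95% confidence intervals (CI) of the 8 log2 fold changes lay between -0.25 and 0.26. The largest change that any of these intervals reached was 1.20-fold, upward for Pbx4, and 1.19-fold, downward for Meis3. A p that misses the threshold does not show that the levels were equal.

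**Figure D1:**
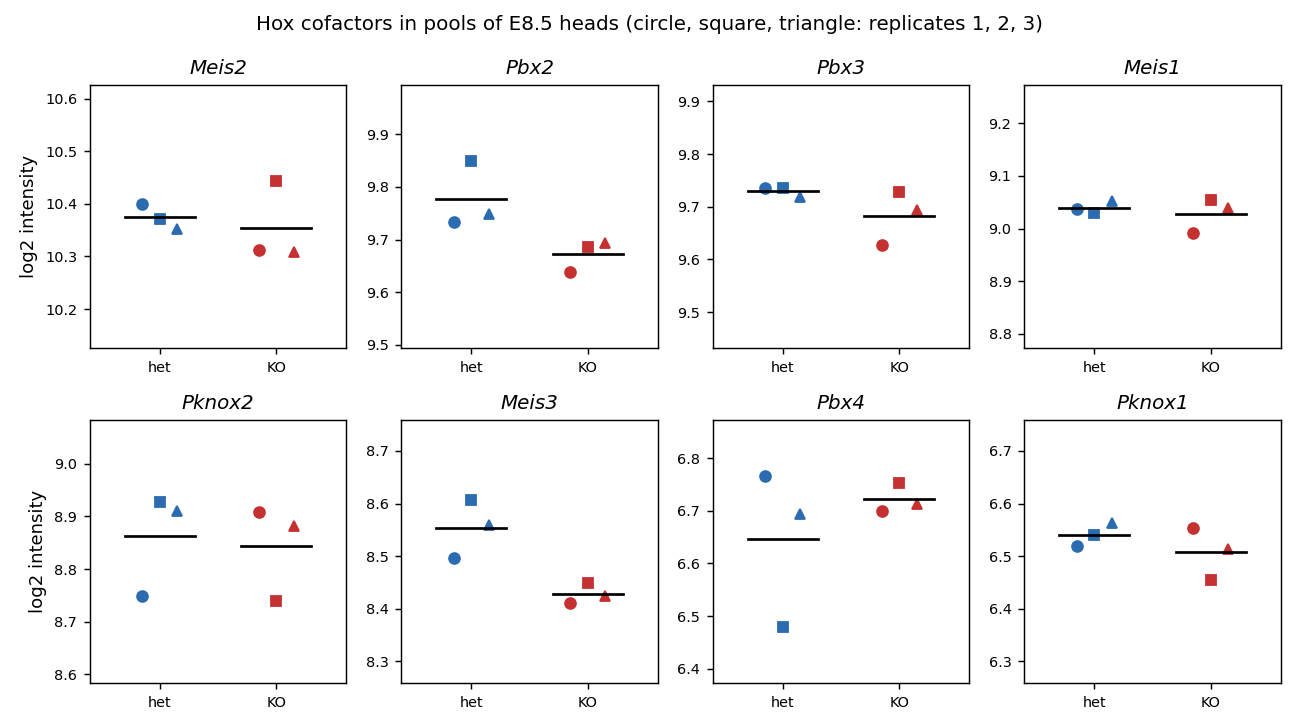
Log2 intensity of the 8 cofactor genes on each array, with heterozygote pools (het) in blue, knockout pools (KO) in red, 1 symbol for each replicate number and black lines for the means of the 3 pools. Every panel spans 0.5 log2 units around its own centre. The groups are apart for Meis3, at 8.496 to 8.61 and 8.41 to 8.45, and for Pbx2, and they overlap for the other 6 genes.

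The transcription start regions of Meis3 and Pbx2 are shown because these are the genes whose groups did not overlap. Their values also ran together over the arrays (Pearson r = 0.943 over 6 pools), which the shift that both share between genotypes favours. Each run covers 250 bases before to 50 bases after a RefSeq start site in the mouse build GRCm38.p6, 5′ to 3′ on the strand of the gene, with each CpG in capitals. Meis3 lies at chr7:16175145-16175444 on the plus strand and Pbx2 at chr17:34592009-34592308, also on the plus strand.

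Meis3: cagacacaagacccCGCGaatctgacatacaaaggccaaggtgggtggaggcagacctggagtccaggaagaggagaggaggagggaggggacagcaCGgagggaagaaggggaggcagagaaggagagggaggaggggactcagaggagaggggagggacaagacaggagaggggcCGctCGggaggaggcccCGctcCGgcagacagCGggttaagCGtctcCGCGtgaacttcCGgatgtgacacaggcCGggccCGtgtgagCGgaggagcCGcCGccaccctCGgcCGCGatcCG

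Pbx2: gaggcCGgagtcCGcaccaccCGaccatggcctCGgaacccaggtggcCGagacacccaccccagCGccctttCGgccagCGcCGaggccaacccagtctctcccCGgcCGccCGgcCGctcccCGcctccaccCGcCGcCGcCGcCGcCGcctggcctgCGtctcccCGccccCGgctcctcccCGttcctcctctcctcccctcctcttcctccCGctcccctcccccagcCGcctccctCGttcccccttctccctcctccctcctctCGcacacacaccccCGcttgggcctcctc

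The Meis3 window holds 21 CpGs and the Pbx2 window 29, where the median of 32851 such windows is 7, and 75.2% and 87.1% of the windows hold fewer. Of the 8 genes, 5 have a window in the RefSeq table used here, and the remaining ones were Pbx4 with 19 CpGs, Meis1 with 15 and Meis2 with 13. None of the 5 windows holds TGACAG, the core of the Meis and Pknox site, or TGATNNAT, the core of a joint Pbx and Hox site, on either strand. Over all windows the shares with a match were 19.2% and 8.8%, and over the 24 windows of 22 Hox genes they were 8.3% (2 windows) and 16.7% (4 windows). These are matches of letters in a short window, and the arrays do not measure binding or the start sites.

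Among the Meis genes, Meis2, which acts in the midbrain and the cranial neural crest, gave the brightest signal of the 8 cofactors. Its log2 intensity was 10.40, 10.37 and 10.35 in heterozygote replicates 1 to 3 and 10.31, 10.44 and 10.31 in knockout replicates 1 to 3. Knockout replicate 2, the pool with the high globin signal, held the highest value, and the other 2 knockout pools lay below all heterozygotes. The log2 fold change was -0.02, with a 95% CI of -0.16 to 0.12 (adjusted p in limma = 0.92).

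Meis1, a factor of the eye and of blood stem cells, had the smallest range of the 8 genes. It measured 9.04, 9.03 and 9.05 in heterozygotes and 8.99, 9.05 and 9.04 in knockouts. The whole range over the 6 pools was 0.06 log2 units. Only 2.4% of the tested probe sets, bright and dim together, had a smaller spread within the genotypes. Its log2 fold change was -0.01, with a 95% CI of -0.13 to 0.11 (adjusted p in limma = 0.95).

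Meis3, which takes part in patterning of the hindbrain in fish and frogs, had the largest difference of the 8 genes. It measured 8.496, 8.61 and 8.56 in heterozygotes, a mean of 8.55 ± 0.06 (SD, n = 3 pools), and 8.41, 8.45 and 8.42 in knockouts, a mean of 8.43 ± 0.02 (SD, n = 3). The log2 fold change was -0.13 with a standard error of 0.05 and a 95% CI of -0.25 to -8e-04 (adjusted p in limma = 0.468). The highest knockout pool and the lowest heterozygote pool, replicate 1, were 0.05 log2 units apart, close to the SD of the heterozygotes. The unadjusted p was 0.049 and lay above 0.05 in 11 of 16 alternatives. The log2 fold change ranged over the 16 from -0.17 with the Y-linked covariate to -0.08 after cyclic loess (adjusted p in limma between 0.334 and 0.694), and was -0.13 with all rows or the replicate block, where the unadjusted p was 0.0536 and 0.0731. Of the probe sets in all, 75.8% had a smaller absolute log2 fold change.

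As the Meis genes were measured on the same arrays, their differences within an array were also compared between the genotypes, a comparison chosen after their values were seen. Meis3 minus Meis1 was -0.54, -0.42 and -0.49 in heterozygotes and -0.58, -0.61 and -0.61 in knockouts. Each knockout pool lay below each heterozygote pool, and the difference between the genotypes was -0.12. Meis1 varied by only 0.06 log2 units over the pools, so this difference largely repeats that of Meis3 and is no separate support for it. An exact two-sided permutation test gave p = 0.1, the smallest that 3 pools against 3 allow, or 0.3 when adjusted over the 3 pairs compared. Meis3 minus Meis2 differed by -0.11 and Pbx2 minus Pbx3 by -0.06, with overlapping groups, and the exact permutation p of both was 0.3.

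Of the Pbx genes, Pbx2, which is dispensable for mouse development when lost alone, measured 9.73, 9.85 and 9.75 in heterozygotes and 9.64, 9.69 and 9.69 in knockouts. The groups did not overlap, with heterozygote replicate 2 well above the rest and 0.04 log2 units between the nearest pools. Its means were 9.78 ± 0.06 (SD, n = 3 pools) and 9.67 ± 0.03 (SD, n = 3). The log2 fold change was -0.10 with a 95% CI of -0.23 to 0.03 (adjusted p in limma = 0.546), and it was -0.07 without heterozygote replicate 2.

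Pbx3, whose loss in mice is known to cause death at birth from central respiratory failure, measured 9.74, 9.74 and 9.72 in heterozygotes and 9.63, 9.73 and 9.69 in knockouts. The heterozygotes were tightly grouped, and knockout replicate 2 lay among them. The log2 fold change was -0.05, with a 95% CI of -0.17 to 0.08 (adjusted p in limma = 0.772). For this gene the interval reached at most 1.13-fold downward and 1.05-fold upward.

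Pbx4, a gene known for expression in the testis, was the only cofactor with a positive log2 fold change. It measured 6.77, 6.48 and 6.69 in heterozygotes and 6.70, 6.75 and 6.71 in knockouts. The knockouts were close together, and the mean difference of 0.07 (95% CI -0.11 to 0.26, limma adjusted p = 0.76) rested on heterozygote replicate 2, the only value below 6.69. Without that pool the log2 fold change was -0.01. That pool was also the heterozygote pool with high Y-linked signal. With the mean of the Y-linked genes as a covariate, the log2 fold change of Pbx4 was 0.19 (adjusted p in limma = 0.615), at an unadjusted p of 0.046.

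The Pknox genes, also called Prep, encode relatives of Meis that bind Pbx in the same way. Pknox1, which the early embryo needs to survive, measured 6.52, 6.54 and 6.56 in heterozygotes and 6.55, 6.46 and 6.51 in knockouts. Its groups overlapped, at a log2 fold change of -0.03 with a 95% CI of -0.16 to 0.09 (adjusted p in limma = 0.846). Pknox2 measured 8.75, 8.93 and 8.91 in heterozygotes and 8.91, 8.74 and 8.88 in knockouts. Heterozygote replicate 1 and knockout replicate 2 were both low, so that the spread within each genotype, with SDs of 0.10 and 0.09, exceeded the log2 fold change of -0.02 (95% CI -0.19 to 0.15, limma adjusted p = 0.946).

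**Figure D2:**
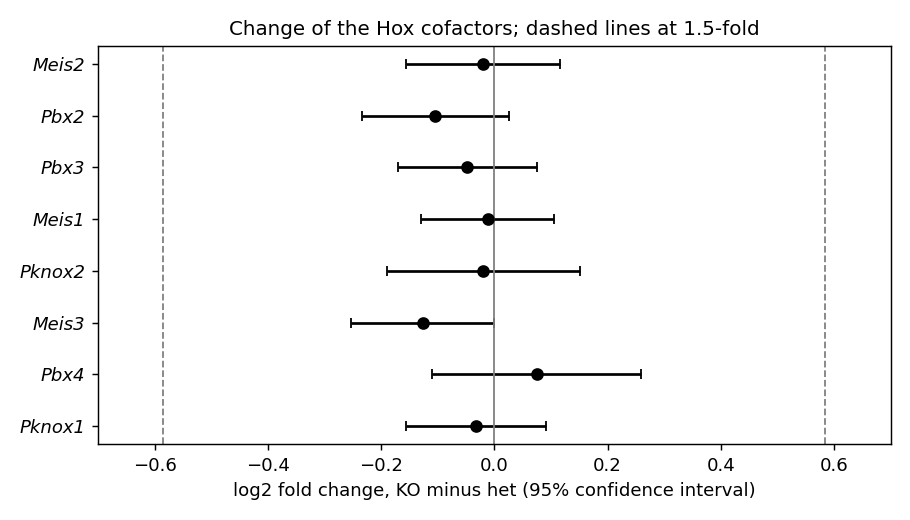
Log2 fold change, knockout minus heterozygote, of the 8 cofactor genes (points) with 95% confidence intervals from limma (bars), ordered by mean signal, with dashed lines at a 1.5-fold change. All intervals lie between -0.25 and 0.26, well inside the dashed lines, and only that of Meis3 ends below 0, at -8e-04.

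In the order of the array signal, averaged over all 6 pools, Meis2 at 10.36 was followed by Pbx2 at 9.72, Pbx3 at 9.71, Meis1 at 9.03, Pknox2 at 8.85, Meis3 at 8.49, Pbx4 at 6.68 and Pknox1 at 6.52. The ranges over the pools overlapped for the neighbours Pbx2 and Pbx3, and for Pbx4 and Pknox1, but for no other pair of neighbours. Probe sets differ in brightness, so this order is that of the signal and not of the amount of RNA. All 8 cofactors lay above the median of all tested probe sets, 6.45, and therefore none was lost when dim probe sets were left out. Their spread within the genotypes was small, with a median pooled SD of 0.05 against 0.09 for all probe sets. This comparison was not matched for signal, and 6 of the 8 lie in the brightest 7263 probe sets.

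Of the 8 genes, 7 had a negative and 1 a positive log2 fold change, and the median was -0.03 against 0.00 (-7e-04) over all probe sets tested. In the brightest 7263 probe sets the median log2 fold change was -0.035, and 6 of the 8 cofactors, all but Pbx4 and Pknox1, belong to them with a median of -0.034. The count of cofactors higher in all knockout pools was 0 of 8, beside 8.03% of all probe sets. The median of the cofactors was -2e-04 after quantile normalization and 1e-04 after cyclic loess, and Meis1, Meis2 and Pknox2 turned positive there. Meis3 and Pbx2 kept negative values, at -0.09 and -0.07 after quantile normalization.

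Knockout replicate 1 held the lowest value of 4 cofactors, Pbx2, Pbx3, Meis1 and Meis3, and heterozygote replicate 2 the highest value of 3, Pbx2, Pknox2 and Meis3.

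The summed intensity of 10 surface ectoderm markers was also lower in all knockout pools, at 7135 to 7891 against 8375 to 8536 in heterozygotes. It thus separated the genotypes in the way Meis3 and Pbx2 did, and the part of this tissue in their values was not tested. The sum is weighted to its brightest members. Of the 10 markers taken singly, 3 were lower in all knockout pools, beside 9.03% of all probe sets and 16.8% of the brightest 7263. The lowest sum, 7135, was that of knockout replicate 3, the pool low in visceral endoderm markers. The 11 measured markers of head mesenchyme and neural crest summed to between 3277 and 3529 in heterozygotes and to between 3292 and 3369 in knockouts, and those of neural ectoderm to between 3533 and 3646 and between 3471 and 3658. Neither of these sums separated the genotypes, but opposite changes of single markers can cancel in a sum. Taken singly, 3 of 11 mesenchyme and crest markers and 4 of 12 neural ectoderm markers were lower in all knockout pools. Among heart and endothelial markers this held for 2 of 10 each. Higher in all knockout pools were 1 neural ectoderm marker (Fabp7), 1 endothelial marker (Robo4) and 0 of the other 3 lists. Markers lower in all knockout pools were thus not confined to surface ectoderm.

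**Figure D3:**
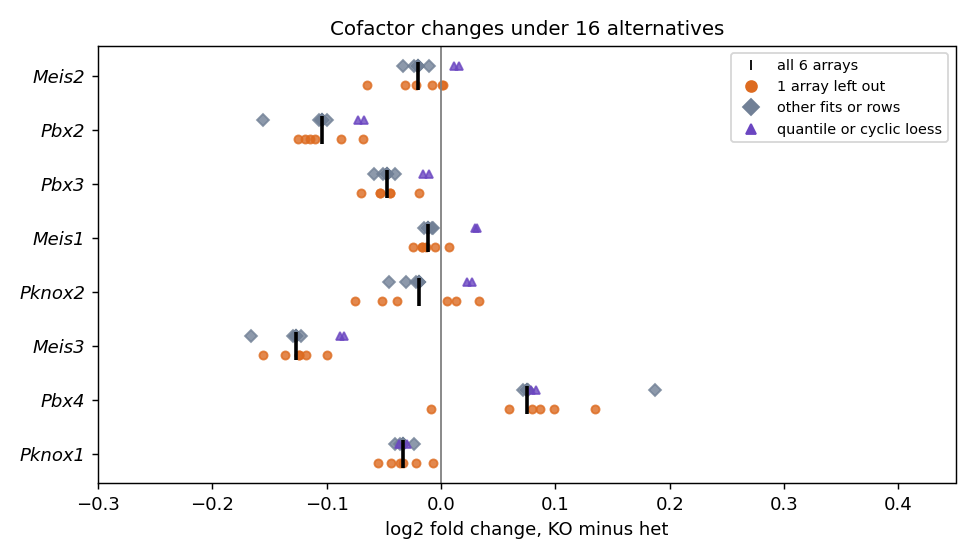
Knockout minus heterozygote log2 fold change for each cofactor with all 6 arrays (black bars), with 1 array left out (orange circles), after quantile or cyclic loess normalization (purple triangles) and under the other alternatives (gray diamonds). Meis3, Pbx2, Pbx3 and Pknox1 stay below 0 throughout, while Meis1, Meis2, Pknox2 and Pbx4 fall on both sides of 0.

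Across the 6 pools, 17 of the 28 pairs of cofactors had a positive Pearson correlation and 2 of them one above 0.8, Pbx2 with Meis3 (r = 0.943) and Pbx3 with Meis1 (r = 0.822). The most negative was that of Meis2 with Pknox2 (r = -0.781), as Pknox2 was low and Meis2 high in heterozygote replicate 1 and knockout replicate 2. All these values come from the same arrays and describe these 6 pools alone. Among 9822 other genes with a signal above the median, those whose values ran most closely with a cofactor had correlations between 0.982 and 0.997 over the 6 arrays. They were Rb1cc1 and Gnai3 for Meis2, Ndc80 and Zfp398 for Meis1, and Sac3d1 and Ice2 for Meis3. For the Pbx genes they were Nkapd1 and Wdr36 (Pbx2), Pdia3 and Garem1 (Pbx3) and Hdac4 and Pign (Pbx4), and for the Pknox genes Ppat and Tmem231 (Pknox2) and Depdc1b and Plppr2 (Pknox1). These likenesses describe 6 arrays. With 9822 candidates, correlations this high can come from the search alone, so the named genes are not shown to be companions of the cofactors.

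The partners of the cofactors were read from the same fit. Of 37 measured Hox genes, 6 were higher and 1 was lower before adjustment, at p under 0.05, beside 5.97% and 4.66% of all probe sets, and after adjustment 0 passed in limma. Their median log2 fold change was 0.07. Unlike the cofactors, 27 of the 37 lie in the dimmest 7263 probe sets, where the median log2 fold change of all probe sets was 0.056 and 761 of them were higher at an unadjusted p under 0.05. Hoxc10 had the highest value, 0.39, and Hoxd1 the lowest, -0.27, with 95% CIs of -0.02 to 0.80 and -0.47 to -0.06. In 9 genes with enhancers known to be bound by Meis, Pbx or Hox proteins, 6 of them Hox genes, 0 passed in either direction at an unadjusted p under 0.05. Their log2 fold changes ran from -0.14 for Hoxb4 to 0.15 for Pax6, at a median of 0.05. Hoxb1, which is kept on in the fourth rhombomere by its own product together with Pbx and Meis or Pknox, was at 0.07, and Hoxb2 at -0.05.

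Of 10 further TALE genes and Pbx binders, 0 had an unadjusted p under 0.05 in limma, with a median log2 fold change of 0.02. The highest was Irx2 at 0.10 and the lowest Mkx at -0.31, with a 95% CI of -0.63 to 0.01. Tgif1, a TALE repressor that also recognizes the Meis core site, was at -0.13, and Pbxip1, which encodes a Pbx-binding protein, at 0.05. The list of midbrain-hindbrain boundary, hindbrain segment and retinoic acid genes had 18 measured members. Retinoic acid signalling turns on the anterior Hox genes and Meis genes. En2 (0.37) and Egr2 (0.24) were the 2 that were higher before adjustment, at p under 0.05 in limma, beside 5.97% of all probe sets. The lowest was Cyp26a1, an enzyme that breaks down retinoic acid, at -0.12, and none of the 18 passed at an adjusted p under 0.05. By in situ hybridization for Egr2 and other genes in slightly later embryos, the paper saw no defect of hindbrain patterning in knockouts. That method shows the place of a transcript, and its result was not compared with these values.

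**Figure D4:**
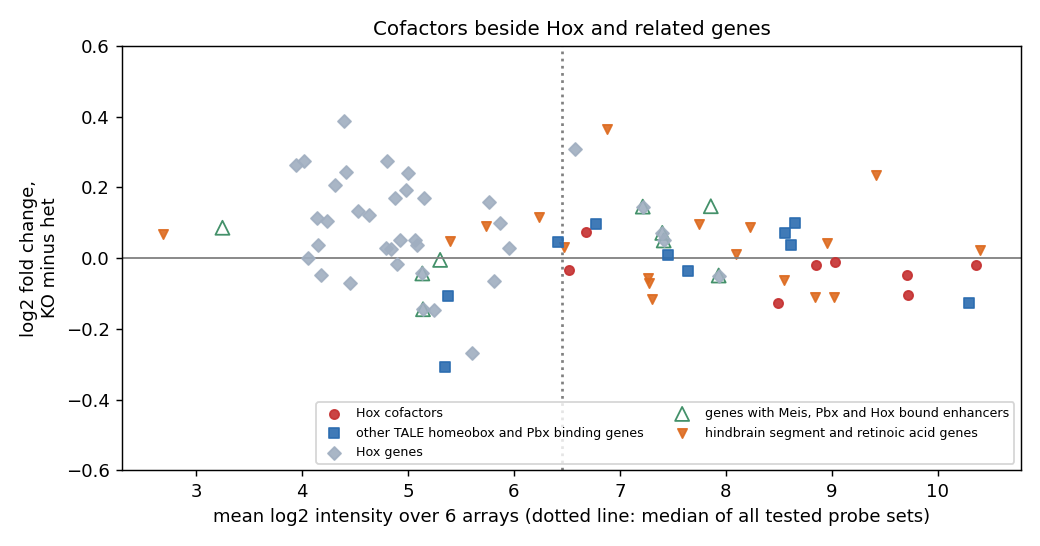
Log2 fold change, knockout minus heterozygote, against mean log2 intensity over 6 arrays for the 8 cofactors (red circles), other TALE homeobox and Pbx binding genes (blue squares), Hox genes (gray diamonds), genes with enhancers bound by these factors (open green triangles, of which 6 are also Hox genes) and hindbrain and retinoic acid genes (orange triangles). The dotted line marks the median signal of all tested probe sets, 6.45. The 8 cofactors lie to its right, between -0.13 and 0.07, and most Hox genes to its left.

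The other marker lists describe the pools, and no gene of them had an adjusted p under 0.05 in limma. Their log2 fold changes ran from -0.39 (Hesx1) to 0.35 (Fabp7) for neural ectoderm, from -0.16 (Alx1) to 0.13 (Sox10) for head mesenchyme and neural crest, from -0.22 (Cdh1) to 0.05 (Grhl3) for surface ectoderm, and from -0.30 (Tbx5) to 0.34 (Nppa) for heart. They ran from -0.19 (Etv2) to 0.22 (Robo4) for endothelium, from 0.02 (Nfe2) to 1.66 (Hbb-bh1) for primitive blood and from -0.64 (Apom) to 0.00 (Hnf4a, 0.0035) for visceral endoderm.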

How the data were processed

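Expression in 6 pools of E8.5 heads, 3 of Jarid1b heterozygotes and 3 of Jarid1b knockouts, was measured on Affymetrix mouse Gene ST arrays. The authors deposited intensities made with RMA in Affymetrix Power Tools per the labels. The labels do not state their scale, which was taken as linear from their range of 2.531 to 11741. Versions are not given in the sources used here. RMA evens out the distributions of the arrays, so that shifts common to most genes are reduced. Here, log2 was taken, and the 21789 of 35556 rows with exactly 1 gene symbol were tested. Symbols of 21698 rows were taken from a RefSeq gene table, whether or not they differed, and those of 91 rows from the platform annotation. Where a gene had several rows, the row with the highest mean was used.

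Knockouts and heterozygotes were compared with limma 3.58.1 (lmFit, eBayes, R 4.3.3) with no covariate, with Benjamini-Hochberg adjustment across the tested rows. The study's own software, Gene Array Analyzer, was not used. The paper calls the pools biological replicates, so a p-value here reflects how much such pools vary. Replicate numbers were not treated as pairs in the main fit. Deviations of arrays with the same number correlated at 0.001, 0.106 and -0.013, and those with different numbers at -0.083 to 0.08. Such correlations cannot show whether the pools were collected or processed in pairs. The 8 genes, the other lists and the tests were chosen with earlier results of these data known. Genes named outside the 8 were Jarid1b, Xist, the highest and lowest member of each list, and for each cofactor the 2 genes of highest correlation. The genes Hoxb1, Hoxb2, Tgif1, Pbxip1, Egr2 and Uty, the motifs and the start regions printed were chosen after their values were seen. The scripts were tested on simulated data. Alternatives left out dim rows, used all rows, averaged rows per gene, changed the normalization, the variance model or the array weights, added a Y-linked covariate or a replicate block, and left out each array.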

Additional observations from a re-analysis of the deposited data

How the results depend on the processing

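The number of cofactors at an adjusted p under 0.05 in limma was 0 under each of the 16 alternatives, and Jarid1b passed in all of them. The number of cofactors lower at an unadjusted p under 0.05, 1 with all arrays, was 0 with all rows, median centring, quantile normalization, cyclic loess, array weights or the replicate block, and 2 with trend and robust, where Pbx2 was added to Meis3. Where it was 0, the log2 fold change of Meis3 was -0.088 after quantile normalization, -0.085 after cyclic loess and between -0.1296 and -0.1228 in the other 4, at unadjusted p between 0.0508 and 0.0731 in limma. Of all tested rows, 4.66% were lower at that p with all arrays and 6.38% with trend and robust. The share was 3.5% to 4.86% in the settings named above with 0 cofactors, and 10.5% without dim probe sets, where 1 cofactor was lower. The number of cofactors lower ranged from 0 to 1 when single arrays were left out, beside 2.84% to 4.94% of all tested rows. The number higher was 1, Pbx4, with the Y-linked covariate, where 4.74% of all tested rows were higher at that p. The number of cofactors whose groups did not overlap ranged from 2 to 4 without single arrays, which can only add to the 2 found with all arrays. Fewer pools separate more easily, and the share of all probe sets that did so is not given for these settings. The rise is therefore not read as a result about the cofactors. The number of probe sets at an adjusted p under 0.05 in limma ranged from 1 to 2, with the Y-linked gene Uty added without heterozygote replicate 2. That pool was the heterozygote pool with high Y-linked signal. The median log2 fold change of the cofactors was -2e-04 after quantile normalization and 1e-04 after cyclic loess, and ranged from -0.0447 to -0.0265 without single arrays. Directions turned for Meis2 (0.016 and 0.011), Meis1 (0.032 and 0.030) and Pknox2 (0.027 and 0.023) after quantile normalization and cyclic loess. Without single arrays, the log2 fold change ranged from -0.0645 to 0.0020 for Meis2, from -0.0248 to 0.0071 for Meis1, from -0.0756 to 0.0328 for Pknox2 and from -0.0086 to 0.1346 for Pbx4. Meis3, Pbx2, Pbx3 and Pknox1 kept their direction in 16 of 16 alternatives. The cause of these shifts was not tested. The number of arrays limits the precision.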
